A study of Mus musculus with 6 samples.

Results

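The genes described here are 42 genes of macrophages and dendritic cells, named by symbol and taken from the 55401 gene IDs counted in whole mouse kidneys. All 42 symbols matched 1 Ensembl ID each. RNA was sequenced in 3 libraries of control mouse kidney and 3 of kidney with diabetic kidney disease (DKD), and the stated subject of the study was the transcription of histone methyltransferases in DKD. The labels give each library only a tissue (kidney), a group (Control or DKD, entered as the genotype) and a replicate number. No source used here gives the strain, age, sex, any engineered allele, or how and for how long diabetes was induced. Nothing there says that the 6 libraries came from different animals, so every p-value below covers library-to-library spread only, and that spread may be technical. Values are counts scaled to the library total (CPM), with TMM factors that correct the total for differences in composition. Differences are on the log2 scale, DKD minus control.

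Kidney macrophages come from cells seeded in the embryo and from blood monocytes, and dendritic cells sample antigen between the tubules. Both depend on transcription factor PU.1, the product of Spi1, and macrophages survive on signals through the receptor Csf1r, which binds the ligands Csf1 and Il34. Adgre1 (F4/80), Mertk and Timd4 mark resident or engulfing macrophages, Ly6c2 marks inflammatory monocytes that enter from blood, and Trem2 and Gpnmb mark lipid-associated macrophages. The 42 genes were sorted into 9 roles, each gene in 1 role, and a role is a label rather than a measured cell of origin. The recruited monocyte role also holds Lyz2, Cd14, Itgam, Clec7a and Clec4n. Whether their transcripts came from monocytes or from resident macrophages was not measured. Several markers are not exclusive to these cells: tubule cells can make Il34, endothelial and other cells Fcgr2b and Axl. In whole tissue, fewer cells of a type and less RNA per cell cannot be told apart.

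Total counts per library ran from 64816622 to 77417638, and 3 counts, the limit that a count of 0 allows, were 0.0353 to 0.0505 CPM (counting error only). Transcripts of kidney epithelium were abundant in each library, for example Umod at 2258 to 3566 CPM. DKD replicate 1 stood apart. Its correlation with the other DKD libraries over tested genes was 0.946 and 0.940, while those correlated at 0.980 with each other and DKD replicate 1 with the controls at 0.957 to 0.961. Albumin (Alb), a hepatocyte product, stood at 2321 CPM in it against 7.20 to 14.7 CPM elsewhere. Markers of Kupffer cells, the macrophages of the liver, were present too. Clec4f was counted 140 times in DKD replicate 1 and 0 times in the other 5 libraries, and Cd5l stood at 2.97 CPM there against 0 in the controls, 0.0519 in DKD replicate 2 and 0.389 in DKD replicate 3. The tests were therefore run with and without that library.

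Most macrophage and dendritic cell genes were higher in DKD replicates 2 and 3 than in every control kidney, and DKD replicate 1 did not share this. Both of DKD replicates 2 and 3 lay above all controls for 35 of the 42 genes (34 of the 39 tested), a pattern seen in 27.4% of the 19197 genes tested. In 31 of them DKD replicate 1 was not above the controls (13.5% of genes tested). DKD replicate 1 was below all controls for 19 genes (25.8% of genes tested). For 17 genes the same 2 kidneys lay above and DKD replicate 1 below all controls (3.95% of genes tested). The quasi-likelihood test of edgeR on all 6 libraries called none of the 39 genes that passed the count filter, and 0% of all genes tested, at an adjusted p of 0.05; unadjusted, 14 were higher and 1 was lower at p under 0.05, against 12.2% and 7.05% of genes tested. Limma-voom with sample quality weights, which gave DKD replicate 1 a weight of 0.302, called 12 higher and 1 lower (9.94% and 7.75% of genes tested), and DESeq2 called 7 higher and 1 lower (6.22% and 2.89%, together 9.11%). Without DKD replicate 1, edgeR tested 40 of the genes and called 28 higher and 0 lower (9.67% and 5.84% of genes tested). Without that library DESeq2 called 34 higher and 1 lower (13.2% and 10.1% of genes tested) and limma-voom without weights 30 higher and 0 lower (11.4% and 6.53%), and the same 28 were among the genes called by both. The 5 genes Csf1, Laptm5, Cd68, Axl and Mrc1 were called by edgeR without DKD replicate 1 and by weighted limma-voom and DESeq2 on all 6 libraries. The share of all genes called by all of these fits together was not counted, so this count has no background beside it. The median difference of the tested genes was 1.16 with all libraries and 1.52 without DKD replicate 1, beside 0.02 in both fits for all genes tested.

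**Figure D1:**
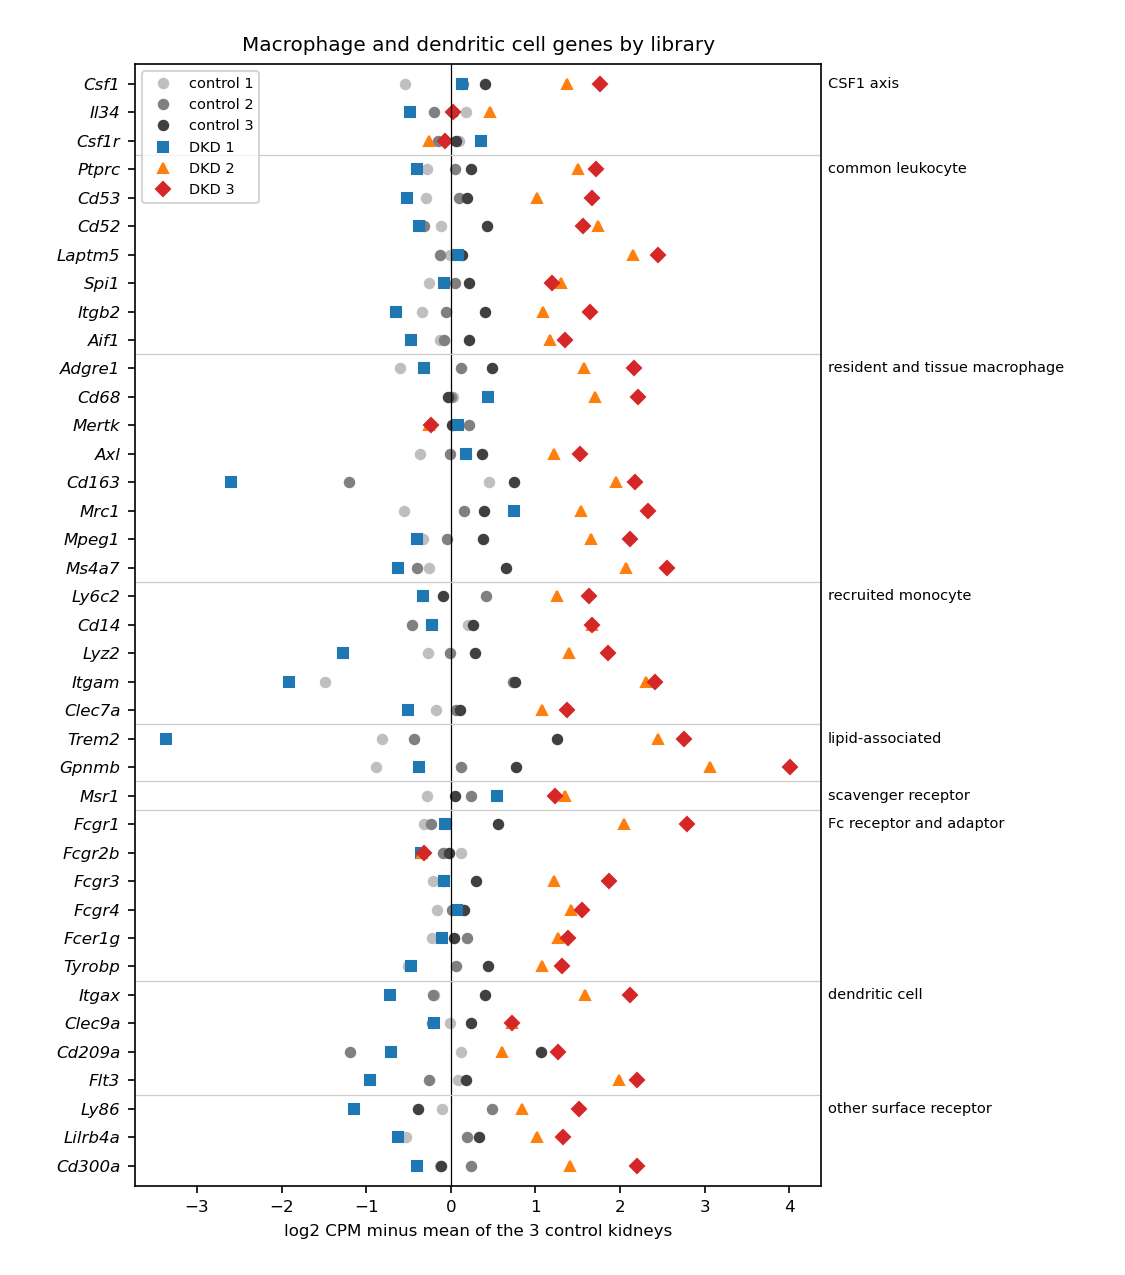
Log2 CPM (prior count 2) of the 39 tested genes in each of the 6 libraries, minus the mean of the 3 control kidneys, grouped by role; each point is 1 library. For most genes DKD replicates 2 and 3 stand to the right of all controls while DKD replicate 1 lies among or left of them. In Il34, Csf1r, Mertk, Fcgr2b and Cd209a DKD replicates 2 and 3 are not both above the controls, and in Cd68, Mrc1 and Msr1 DKD replicate 1 is above them too.

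All 7 genes shared by leukocytes were above every control in DKD replicates 2 and 3, and for 5 of them DKD replicate 1 was below every control. Laptm5, a lysosomal membrane protein of blood cells, stood at 6.66, 6.11 and 7.35 CPM in control replicates 1 to 3 and at 7.12, 29.9 and 36.5 CPM in DKD replicates 1 to 3. DKD replicate 1 was inside the control range and the other DKD kidneys were far above it. The difference was 1.87 ± 0.56 (SE; adjusted p = 0.167, edgeR), and 2.30 ± 0.15 without DKD replicate 1 (adjusted p = 0.000624). Ptprc, which encodes the leukocyte phosphatase CD45, had 7.12, 9.0 and 10.2 CPM in control and 6.55, 24.6 and 28.5 CPM in DKD kidneys. Here DKD replicate 1 was the lowest of all 6. Ptprc differed by 1.18 ± 0.51 (adjusted p = 0.270) and by 1.59 ± 0.17 without that library (adjusted p = 0.00325). Spi1 itself had 2.05, 2.55 and 2.85 CPM in control and 2.32, 6.10 and 5.69 CPM in DKD kidneys, a difference of 0.92 ± 0.38 (adjusted p = 0.248; 1.24 ± 0.22 and adjusted p = 0.0138 without DKD replicate 1). Cd53, a tetraspanin, Cd52, a small surface glycoprotein, Itgb2, the integrin chain shared by leukocyte integrins, and Aif1 (IBA1) differed by 0.89 to 1.21 with all libraries. Without DKD replicate 1 edgeR called all 7 genes of this role higher. On all 6 libraries edgeR called none of them, weighted limma-voom 3 (Laptm5, Ptprc and Spi1) and DESeq2 1 (Laptm5).

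PU.1 binds purine-rich sites around the core GGAA. The promoters of 31 of the 42 genes were matched by symbol in RefSeq (GRCm38.p6). In the 250 bases before each annotated start, GAGGAA was found on either strand for 16 of the 31 genes (51.6%), against 25.9% of all 27025 gene symbols in the table. The longer GAGGAAGT, which contains it, was found for 2 genes, Fcgr4 and Ly6c2 (6.45%, against 2.79%). Of the 21 matched genes called higher without DKD replicate 1, 13 held GAGGAA and 8 did not. Of the other 10, 3 held it and 7 did not. The same split was not made over all genes, so these counts do not tie the match to a change. A match is a description of letters, not of binding. The 6 windows below were chosen after their letters were seen, as examples with the match (Laptm5, Cd53, Fcgr4, Mrc1) and without it, both in a gene called higher without DKD replicate 1 (Lyz2) and in one not called higher (Fcgr2b). They say nothing of how often the match goes with a change. GAGGAA or its reverse complement TTCCTC is in capitals.
Laptm5: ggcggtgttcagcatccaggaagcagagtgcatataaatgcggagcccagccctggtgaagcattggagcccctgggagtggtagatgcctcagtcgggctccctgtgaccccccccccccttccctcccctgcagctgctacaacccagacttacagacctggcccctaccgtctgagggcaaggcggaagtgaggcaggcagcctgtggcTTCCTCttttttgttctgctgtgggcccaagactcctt
Cd53: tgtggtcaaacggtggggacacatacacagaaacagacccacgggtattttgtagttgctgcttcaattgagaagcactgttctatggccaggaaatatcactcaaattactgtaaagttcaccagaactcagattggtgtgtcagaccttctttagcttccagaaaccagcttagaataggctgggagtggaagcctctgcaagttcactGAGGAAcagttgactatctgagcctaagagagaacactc
Fcgr4: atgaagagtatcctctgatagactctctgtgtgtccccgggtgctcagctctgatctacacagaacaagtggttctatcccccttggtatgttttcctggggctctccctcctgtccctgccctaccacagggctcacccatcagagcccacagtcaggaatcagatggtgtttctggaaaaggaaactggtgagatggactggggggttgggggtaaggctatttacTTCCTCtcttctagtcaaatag
Mrc1: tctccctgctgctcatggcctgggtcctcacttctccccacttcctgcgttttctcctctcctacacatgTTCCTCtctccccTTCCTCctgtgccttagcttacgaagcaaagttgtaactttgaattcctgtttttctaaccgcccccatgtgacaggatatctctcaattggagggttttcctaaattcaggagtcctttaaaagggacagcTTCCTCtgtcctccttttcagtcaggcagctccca
Lyz2: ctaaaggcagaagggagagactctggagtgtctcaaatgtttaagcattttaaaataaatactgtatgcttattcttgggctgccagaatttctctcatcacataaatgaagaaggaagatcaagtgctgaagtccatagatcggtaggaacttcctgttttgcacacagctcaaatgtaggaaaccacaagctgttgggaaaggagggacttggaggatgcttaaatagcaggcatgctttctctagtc
Fcgr2b: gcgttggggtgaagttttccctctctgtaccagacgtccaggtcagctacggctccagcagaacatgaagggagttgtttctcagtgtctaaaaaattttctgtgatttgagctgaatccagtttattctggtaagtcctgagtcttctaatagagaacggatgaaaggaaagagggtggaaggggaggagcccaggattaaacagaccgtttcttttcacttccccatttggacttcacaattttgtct
The windows are chr4:130913066-130913315, plus strand, chr3:106790150-106790399, minus strand, chr1:171018676-171018925, plus strand, chr2:14229164-14229413, plus strand, chr10:117282273-117282522, minus strand and chr1:170976072-170976321, minus strand, each written in the direction of its gene. The match nearest the start lies 38 bases before it in Laptm5, 39 in Cd53, 22 in Fcgr4 and 35 in Mrc1, which holds 3 matches. Lyz2 and Fcgr2b hold no GAGGAA in this window, though both hold the shorter core GGAA.

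Along the CSF1 axis the ligand Csf1 was higher in DKD replicates 2 and 3 and its receptor was not. Csf1, the growth factor that keeps macrophages alive, had 4.91, 7.94 and 9.47 CPM in control and 7.87, 18.6 and 24.4 CPM in DKD kidneys. DKD replicate 1 lay inside the controls. Csf1 differed by 1.19 ± 0.43 (adjusted p = 0.214, edgeR). Leaving out DKD replicate 1 gave 1.52 ± 0.27 (adjusted p = 0.0137). DESeq2 and weighted limma-voom also called Csf1 higher on all 6 libraries (adjusted p = 0.0402 and 0.0358). Il34, the ligand made by epithelium, had 26.8, 20.6 and 24.2 CPM in control and 17, 32.8 and 24.1 CPM in DKD kidneys. The receptor Csf1r had 74.1, 62.3 and 72.7 CPM in control and 89.1, 58.2 and 66.3 CPM in DKD kidneys. For both genes the groups overlapped. The 95% interval of the difference was -0.50 to 0.60 for Il34 and -0.36 to 0.42 for Csf1r (-0.15 to 0.64 and -0.45 to 0.11 without DKD replicate 1), and the sign of each turned in some fits, so no direction is given. Of annotated Csf1r exon sequence 15.1% overlaps Hmgxb3 on the other strand (GENCODE M21), and the strand setting of the counting is not given in the sources used here.

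Of the resident and tissue macrophage genes, 6 were called higher without DKD replicate 1, and Mertk and Cd163 were not. Cd68, a lysosomal glycoprotein of macrophages, had 2.32, 2.29 and 2.23 CPM in control and 3.10, 7.47 and 10.6 CPM in DKD kidneys. Every DKD kidney was above every control kidney. The difference was 1.63 ± 0.42 (adjusted p = 0.136; 1.98 ± 0.22 and adjusted p = 0.00320 without DKD replicate 1). Mrc1, the mannose receptor CD206, had 1.75, 2.88 and 3.37 CPM in control and 4.32, 7.54 and 13.1 CPM in DKD kidneys, again without overlap. Mrc1 differed by 1.64 ± 0.44 (adjusted p = 0.141; 1.94 ± 0.34 and adjusted p = 0.0127 without DKD replicate 1). Both genes are also made by Kupffer cells, whose markers Clec4f and Cd5l were present in DKD replicate 1, and the part of liver RNA in the values of that library was not tested. Cd68, Mrc1 and the scavenger receptor Msr1 were the 3 tested genes whose groups did not overlap with DKD higher, and Fcgr2b the 1 with DKD lower (13.8% and 11.5% of genes tested).

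Adgre1, the F4/80 antigen, had 2.31, 3.80 and 4.91 CPM in control and 2.81, 10.5 and 15.8 CPM in DKD kidneys. Mpeg1, which encodes the pore-forming perforin-2 of phagocytes, had 9.37, 11.4 and 15.3 CPM in control and 8.93, 37.2 and 51.2 CPM in DKD kidneys. DKD replicate 1 lay inside the controls for Adgre1 and below them for Mpeg1. Axl, a receptor for phosphatidylserine-bridging ligands, had 12.9, 16.5 and 21.3 CPM in control and 18.7, 38.4 and 47.7 CPM in DKD kidneys (1.05 ± 0.35, adjusted p = 0.192). Ms4a7, a membrane protein of macrophages, differed by 1.78 ± 0.76 (adjusted p = 0.261). Without DKD replicate 1, Adgre1, Mpeg1, Axl and Ms4a7 were called higher, with differences of 1.83, 1.87, 1.34 and 2.27. Mertk, the related receptor through which macrophages take up dying cells, had 42.6, 58.5 and 50.7 CPM in control and 53.3, 41.8 and 42.7 CPM in DKD kidneys. Its groups overlapped, and its difference was -0.14 ± 0.15 (95% interval -0.49 to 0.21; -0.27 ± 0.14 without DKD replicate 1; 0.0017 with library size alone). Cd163, the haemoglobin scavenger receptor, was scarce, with 12, 3 and 18 counts in control and 0, 48 and 62 counts in DKD kidneys. Its adjusted p was 0.574 with all libraries and 0.112 without DKD replicate 1 (edgeR), and without that library it was above 0.05 with DESeq2 and with limma-voom without weights too. Timd4, the phosphatidylserine receptor TIM-4, was too scarce to test, with 0 counts in the control kidneys and 7, 8 and 0 counts in DKD replicates 1 to 3.

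Genes of the recruited monocyte role were higher in DKD replicates 2 and 3 as well. Over the 5 tested, DKD replicate 1 had the lowest mean level of the 6 libraries (-0.85 on the log2 scale relative to the control mean, controls -0.41 to 0.27). It was also the lowest over all 39 tested genes (-0.46, controls -0.25 to 0.30). Over 6 other monocyte genes its mean level lay inside the controls (0.08, controls -0.28 to 0.33). Of these, 1 (Ccr2) was below all controls in DKD replicate 1, 3 were inside them and 2 (Vcan and Ms4a4c) were above. Lyz2, lysozyme of myeloid cells, had 21.8, 26.1 and 32.1 CPM in control and 10.8, 69.2 and 95.6 CPM in DKD kidneys. DKD replicate 1 was below every control and the other DKD kidneys were above every control. The difference was 1.13 ± 0.73 (adjusted p = 0.439) with all libraries and 1.62 ± 0.19 without DKD replicate 1 (adjusted p = 0.00398). Ly6c2, a surface marker of inflammatory monocytes, had 1.78, 3.02 and 2.10 CPM in control and 1.79, 5.39 and 7.02 CPM in DKD kidneys (1.04 ± 0.49, adjusted p = 0.298; 1.42 ± 0.28 and adjusted p = 0.0186 without DKD replicate 1). Both have a near-identical neighbour, Lyz1 and Ly6c1, between which the counting could split reads. Ly6c1, also made by endothelium, stood at 41.7 to 46.1 CPM in control and 43.4, 60.8 and 65.4 CPM in DKD kidneys. Cd14, the co-receptor for bacterial lipopolysaccharide, had 4.43, 2.79 and 4.64 CPM in control and 3.31, 12.4 and 12.3 CPM in DKD kidneys. Clec7a (dectin-1), a receptor for fungal glucans, differed by 0.85 ± 0.45 (adjusted p = 0.343). Cd14 and Clec7a were called higher without DKD replicate 1 (adjusted p = 0.00807 and 0.0126). Itgam, the integrin chain CD11b, had 9, 53 and 58 counts in control and 8, 189 and 224 counts in DKD kidneys, and was not called (adjusted p = 0.462; 0.0582 without DKD replicate 1). Its exons overlap the same-strand gene model Gm49368 over 68.7% of their length, so its counts are uncertain. Clec4n (dectin-2), which had 0, 8 and 0 counts in control and 10, 24 and 96 counts in DKD kidneys, did not pass the count filter with all libraries (adjusted p = 0.0833 without DKD replicate 1).

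Gpnmb and Trem2, the lipid-associated markers, were rare in control kidneys. Gpnmb, a glycoprotein of lysosome-rich macrophages, had 5, 13 and 23 counts in control and 10, 131 and 280 counts in DKD kidneys, or 0.0841, 0.197 and 0.324 CPM and 0.131, 1.70 and 3.30 CPM. DKD replicate 1 was inside the control range. Its difference of 3.06 ± 1.07 (adjusted p = 0.198) was the highest estimate among the 39 tested genes. Leaving out DKD replicate 1 gave 3.59 ± 0.56 (adjusted p = 0.00932). Trem2, the lipid-sensing receptor that signals through Tyrobp, had 8, 12 and 46 counts in control and 0, 117 and 161 counts in DKD kidneys. Control replicate 3 held most of the control counts. Trem2 differed by 1.81 ± 1.41 (adjusted p = 0.513), and without DKD replicate 1 by 2.38 ± 0.65 (adjusted p = 0.0502). Of the scavenger receptors, Msr1, which binds modified lipoproteins, had 19, 31 and 29 counts in control and 45, 81 and 82 counts in DKD kidneys. Its difference was 1.12 ± 0.40 (adjusted p = 0.204; 0.0684 without DKD replicate 1; 0.0483 with weighted limma-voom on all 6 libraries). Marco, a scavenger receptor of marginal-zone and lung macrophages, had 0 counts in all 6 libraries.

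The Fc receptors, which bind antibody, included genes higher in DKD replicates 2 and 3 and 1 gene that was lower in every DKD kidney. Fcgr1, the high-affinity receptor for IgG, had 0.572, 0.606 and 1.07 CPM in control and 0.683, 3.05 and 5.14 CPM in DKD kidneys. Only DKD replicate 1 overlapped the controls. The difference was 1.97 ± 0.69 (adjusted p = 0.198; 2.43 ± 0.38 and adjusted p = 0.00958 without DKD replicate 1). Fcgr3 and Fcgr4, activating receptors of lower affinity, differed by 1.20 ± 0.46 and 1.16 ± 0.40 (adjusted p = 0.226 and 0.194). The adaptors Fcer1g and Tyrobp (DAP12), which carry the activating signal of Fc receptors and of Trem2, differed by 0.98 ± 0.39 and 0.78 ± 0.48 (adjusted p = 0.235 and 0.405). Those 5 genes were called higher without DKD replicate 1, with Tyrobp nearest the threshold (adjusted p = 0.0450). Fcgr2b, the inhibitory Fc receptor, had 67.7, 58.5 and 61.2 CPM in control and 48.8, 49.3 and 50.2 CPM in DKD kidneys. Its groups did not overlap and the spread among the DKD kidneys was narrow. The difference was -0.34 ± 0.09 with and -0.34 ± 0.10 without DKD replicate 1 (adjusted p = 0.137 and 0.0688, edgeR), while weighted limma-voom and DESeq2 called Fcgr2b lower (adjusted p = 0.0338 and 0.0229).

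Of the 4 dendritic cell genes, Itgax and Flt3 were called higher without DKD replicate 1, and Clec9a and Cd209a were not. Itgax, the integrin chain CD11c, had 2.10, 2.09 and 3.20 CPM in control and 1.46, 7.28 and 10.5 CPM in DKD kidneys (1.38 ± 0.65, adjusted p = 0.298). Flt3, the receptor that drives dendritic cell growth, had 0.353, 0.273 and 0.381 CPM in control and 0.158, 1.40 and 1.63 CPM in DKD kidneys (1.66 ± 0.78, adjusted p = 0.294). DKD replicate 1 was below every control for both. Without it they were called higher, by 1.84 ± 0.28 and 2.16 ± 0.37 (adjusted p = 0.00837 and 0.0118). Clec9a, which marks cross-presenting dendritic cells, had 2.34, 2.02 and 2.78 CPM in control and 2.05, 3.91 and 3.92 CPM in DKD kidneys, and differed by 0.47 ± 0.31 (adjusted p = 0.440; 0.71 ± 0.23 and 0.0865 without DKD replicate 1). Cd209a, a lectin of monocyte-derived dendritic cells, had 0.791, 0.303 and 1.55 CPM in control and 0.433, 1.12 and 1.79 CPM in DKD kidneys, and its groups overlapped with and without that library. Among other surface receptors, Cd300a, an inhibitory receptor, differed by 1.43 ± 0.60 and Lilrb4a, another inhibitory receptor, by 0.74 ± 0.49 (adjusted p = 0.256 and 0.437), and both were called higher without DKD replicate 1 (adjusted p = 0.0116 and 0.0313). Lilrb4a overlaps the same-strand gene model Gm49339 over 35.3% of its exon length and has a near copy, Lilr4b, so its counts are uncertain. Ly86 (MD-1), a partner of a Toll-like receptor homologue, differed by 0.73 ± 0.63 (adjusted p = 0.549; 1.18 ± 0.35 and 0.0655 without DKD replicate 1).

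**Figure D2:**
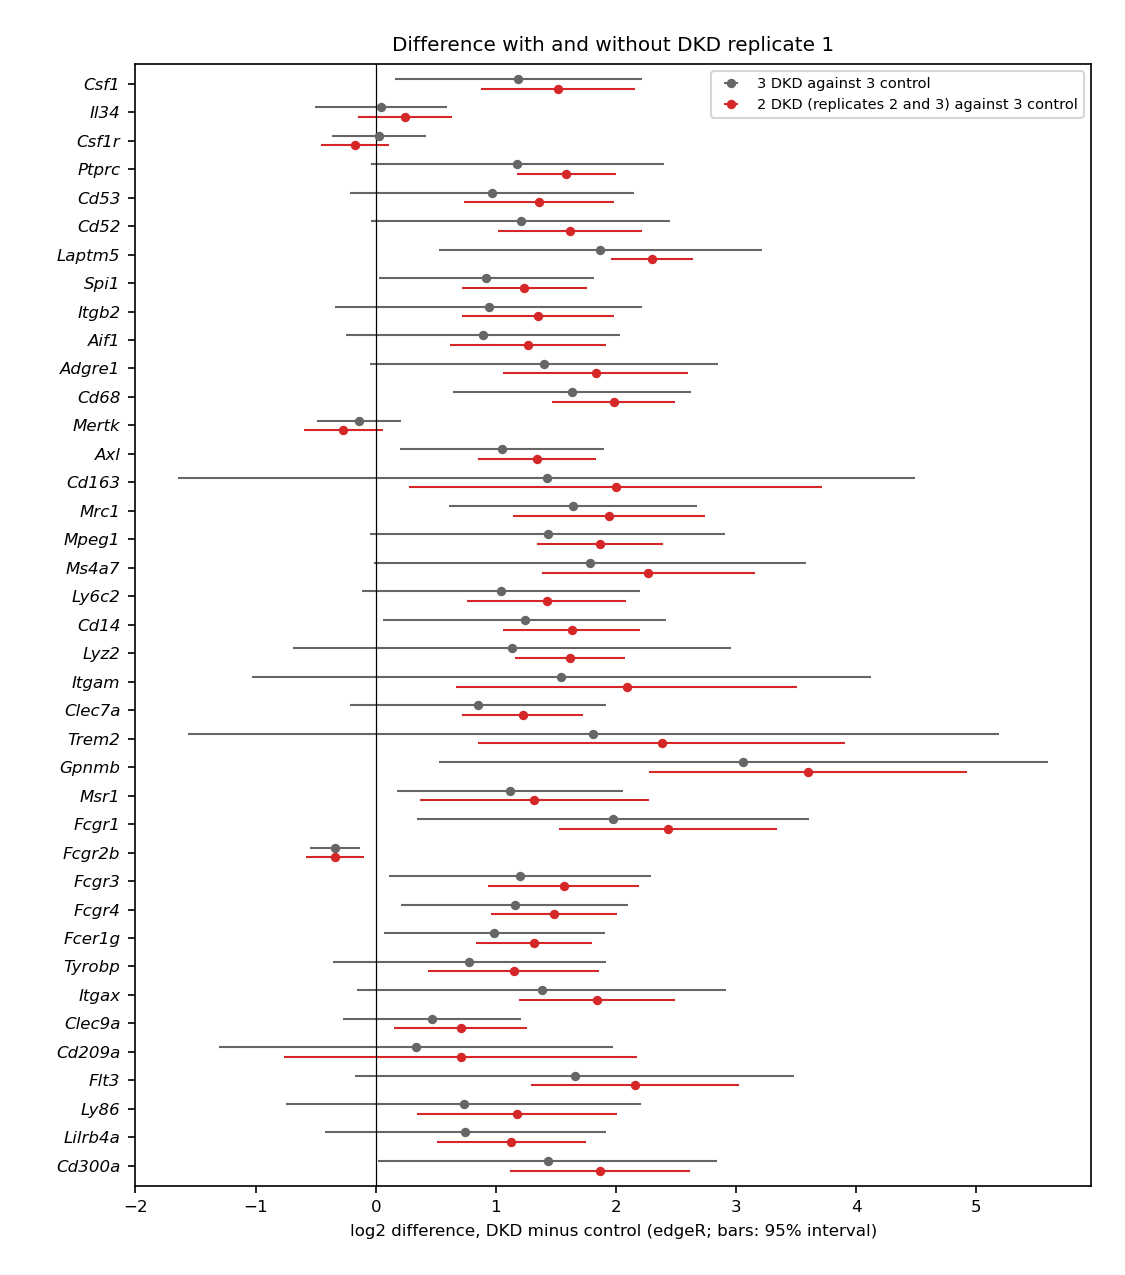
Log2 difference, DKD minus control, of the 39 tested genes from edgeR with 95% intervals, over all 6 libraries (grey) and without DKD replicate 1 (red). The red estimates of most genes lie to the right of the grey ones with shorter bars, while Fcgr2b keeps -0.34 in both and the intervals of Il34, Csf1r and Mertk span 0 in both.

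Il34, Csf1r, Mertk and Fcgr2b, 4 of the 5 genes in which DKD replicates 2 and 3 were not both above the controls, followed Lyz2 in abundance. Per kilobase of annotated exon (GENCODE M21, an annotation of GRCm38), the control mean was 20.3 CPM for Lyz2, 12.2 for Il34, 12.1 for Csf1r, 11.7 for Mertk and 10.8 for Fcgr2b, the 5 highest of the list. The other such gene, Cd209a, ranked 26 of 42, at 0.557 CPM per kilobase. The next, Tyrobp, stood at 3.5 CPM per kilobase, and Cd68 at 1.81. Which cells of the kidney these transcripts came from was not measured.

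Each gene was also set against the mean log2 CPM of the 7 leukocyte genes in the same library, which shows whether it moved with them or apart. Over 32 genes the median shift of this relative level, DKD minus control, was 0.04 on the log2 scale. With 3 against 3 libraries the exact permutation test (two-sided) cannot go below 0.10, so no gene could pass 0.05, and only Cd68 (0.54 higher in DKD) and Clec7a (-0.26) reached that smallest p (0.738 adjusted over the 32). The relative level of Gpnmb was -4.76, -3.90 and -3.57 in control kidneys, against -4.11, -2.44 and -1.72 in DKD replicates 1 to 3. Its excess in DKD replicates 2 and 3 was thus larger than that of the leukocyte genes, with overlapping groups (exact p = 0.3). The relative level of Trem2 was -4.22, -4.00 and -2.63 in control kidneys, against -6.64, -2.60 and -2.51 in the DKD kidneys. In DKD replicates 2 and 3 it was above the control mean of -3.62 but only just above control replicate 3. That of Fcgr1 was -2.40 to -1.93 in control kidneys, against -1.95, -1.60 and -1.09 in the DKD kidneys. Fcgr3 and Lyz2 stayed near the leukocyte genes in DKD replicates 2 and 3, at -0.53 and -0.12 for Fcgr3 (control -0.37 to -0.29) and 2.89 and 3.12 for Lyz2 (control 2.85 to 2.96). In DKD replicate 1 Fcgr3 was above its control range, at -0.06, and Lyz2 below its own, at 1.98. Csf1r had relative levels of 4.12 to 4.61 in control kidneys, 5.02 in DKD replicate 1, 2.64 in DKD replicate 2 and 2.59 in DKD replicate 3. For Mertk they were 3.60 to 4.12, then 4.28, 2.16 and 1.96. Fcgr2b ranged from 3.87 to 4.48 in control kidneys, with 4.15, 2.40 and 2.19 in the DKD kidneys. All 3 were below their control range in DKD replicates 2 and 3, while in DKD replicate 1 Csf1r and Mertk were above it and Fcgr2b was inside it.

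**Figure D3:**
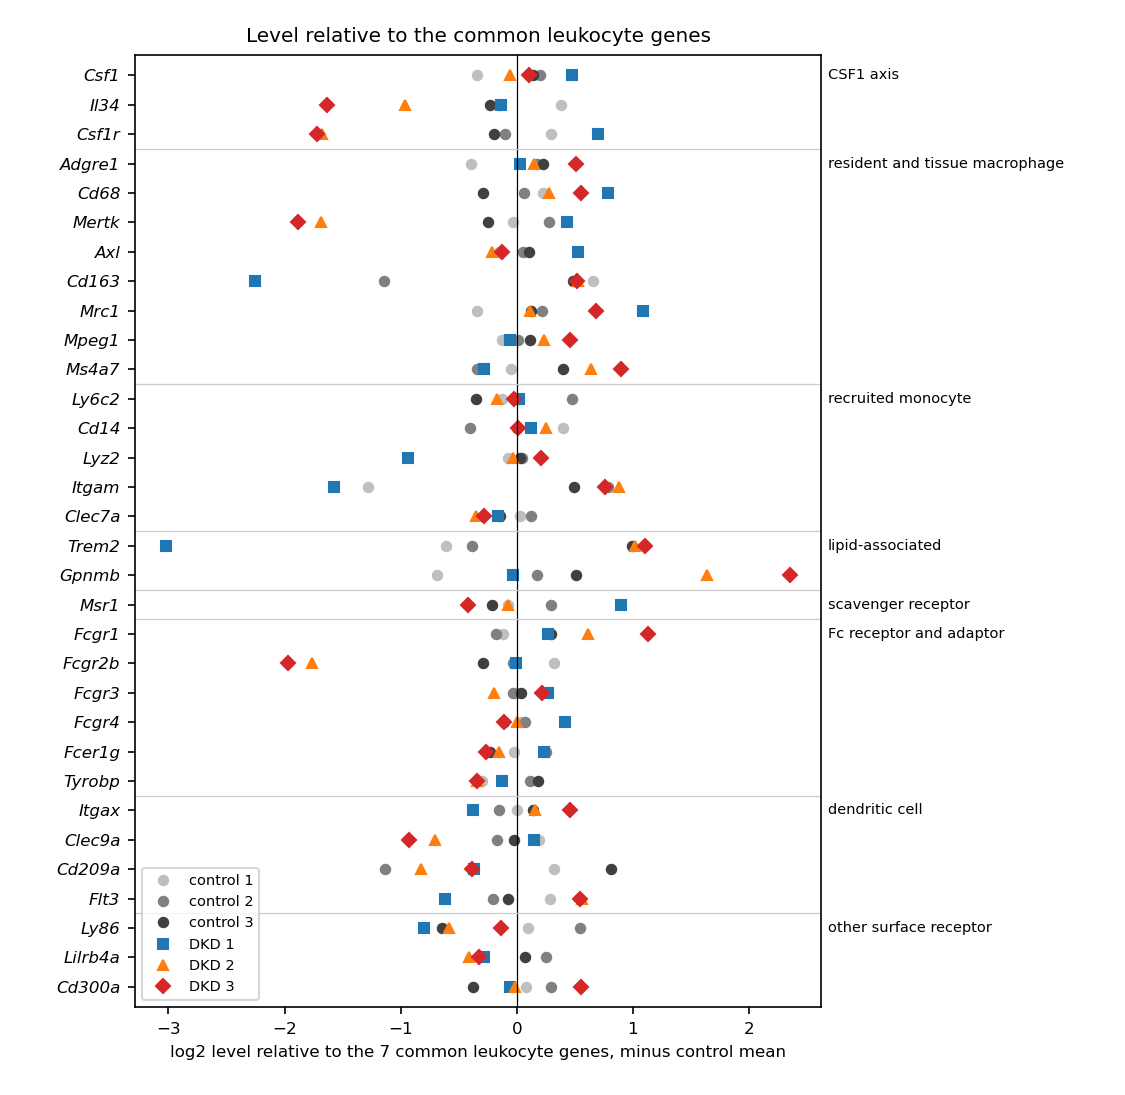
Log2 level of 32 tested genes relative to the mean of the 7 common leukocyte genes in the same library, minus the control mean; each point is 1 library. Most points lie within 1 of 0. In DKD replicates 2 and 3, Il34, Csf1r, Mertk and Fcgr2b lie to the left, and Gpnmb and, by less, Trem2 to the right.

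Other genes of the same cells were read from the same fits. None was called by edgeR with all 6 libraries, and the counts without DKD replicate 1 stand beside 9.67% of all genes tested called higher and 5.84% lower. Of 10 further resident macrophage genes, 5 were called higher without DKD replicate 1, among them the complement subunits C1qa, C1qb and C1qc. C1qc had 6.68, 7.48 and 8.39 CPM in control and 8.06, 19.3 and 20.5 CPM in DKD kidneys. Of 7 further monocyte genes, 4 were called higher without DKD replicate 1. Ms4a4c had 0.353, 0.455 and 0.282 CPM in control and 0.473, 1.69 and 1.90 CPM in DKD kidneys, while Ccr2, the receptor that draws monocytes from blood, had 3.03, 5.62 and 7.18 CPM in control and 1.51, 10.3 and 12.3 CPM in DKD kidneys and was not called. Of 13 further genes of lipid-associated macrophages, 4 were called higher and 1 lower without DKD replicate 1. Spp1 (osteopontin), which tubules also make, had 505, 570 and 568 CPM in control and 762, 1985 and 2336 CPM in DKD kidneys. Lpl, lipoprotein lipase, had 423, 507 and 504 CPM in control and 723, 192 and 80.4 CPM in DKD kidneys, above the controls in DKD replicate 1 and below them in the others.

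Of 11 further dendritic cell genes, 1 was called higher without DKD replicate 1, a share near that of all genes tested (9.67%). It was Ccr7, the receptor that guides dendritic cells to lymph nodes, at 0.0841, 0.333 and 0.127 CPM in control and 0.131, 1.96 and 1.67 CPM in DKD kidneys. Of 11 genes that signal below Fc receptors and adaptors, 9 were called higher without DKD replicate 1. Pik3ap1, an adaptor for phosphoinositide 3-kinase, had 1.33, 2.30 and 2.68 CPM in control and 3.95, 7.22 and 8.24 CPM in DKD kidneys, above the controls in all 3. Syk, the kinase recruited by these receptors, had 1.78, 1.80 and 2.29 CPM in control and 0.867, 8.10 and 9.51 CPM in DKD kidneys. Ptpn6, the phosphatase recruited by inhibitory receptors, stayed within 26.6 to 31.8 CPM in all 6 libraries.

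Markers of other cells moved with these genes in part. Beside them, the 10 T and NK cell markers had a mean level (log2, relative to the control mean) of -0.26, 1.27 and 1.74 in the 3 DKD kidneys in order, and 8 of the 10 were called higher without DKD replicate 1, against 9.67% of all genes tested. Their summed level was 5.97 to 7.42 CPM in control and 6.49, 19.2 and 23.2 CPM in DKD kidneys. The NK cell markers Ncr1 and Klrb1c, both scarce, were not called without that library (adjusted p = 0.531 and 0.227, edgeR). Ncr1 had 4, 18 and 18 counts in control and 8, 0 and 12 counts in DKD kidneys. Klrb1c had 11, 13 and 7 counts in control and 0, 32 and 33 counts in DKD kidneys. The 7 B and plasma cell markers, 3 of them called higher without that library (9.67% of all genes tested), stood at -0.86, 2.16 and 1.58. Most neutrophil markers were at or near 0. Of 10 genes 5 could be tested and Elane had no count. The summed level of the 10 was 1.80 to 2.34 CPM in control and 1.54, 2.61 and 4.39 CPM in DKD kidneys. Csf3r, the most abundant of them, had 1.36, 0.955 and 0.973 CPM in control and 0.985, 1.95 and 2.87 CPM in DKD kidneys. It was not called without DKD replicate 1 (adjusted p = 0.0568, edgeR). The defining mast cell genes Fcer1a and Tpsb2 had 0 counts. In DKD replicate 1 the 14 matched hepatocyte markers summed to 4479 CPM, against 380 to 504 CPM in the other libraries, and the 6 red cell markers to 891 CPM, against 328 to 561 CPM. The part of these other cells in the results above was not tested.

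**Figure D4:**
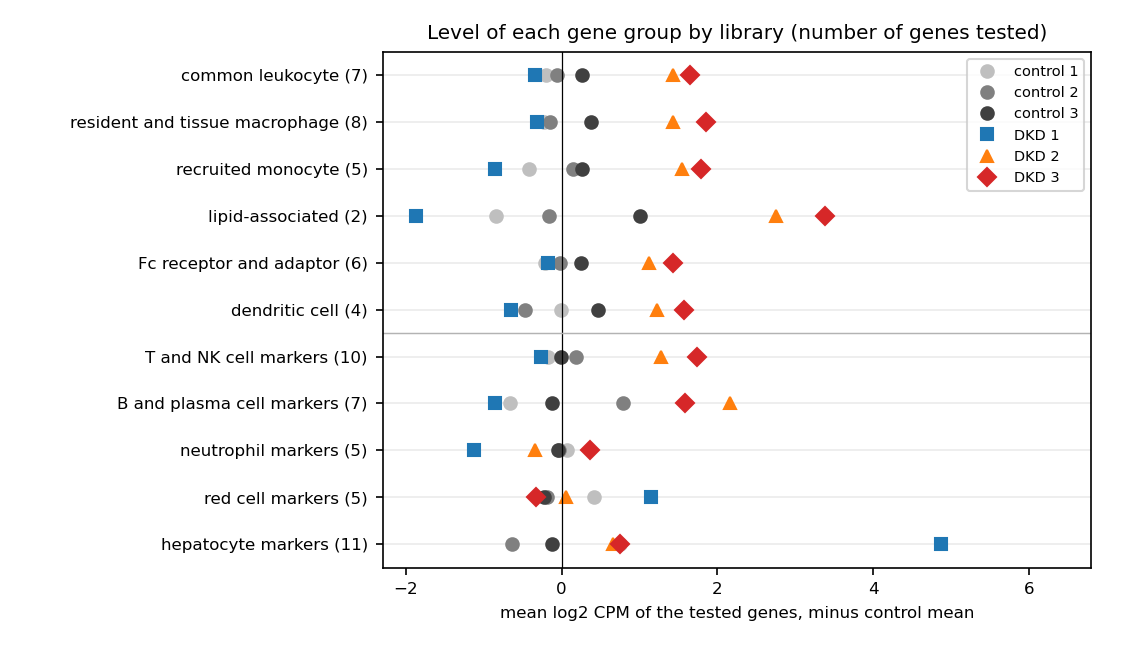
Mean log2 CPM (prior count 2) of the tested genes of each role or marker list in each library, minus the control mean, with the number of genes in parentheses; each point is 1 library. The leukocyte, macrophage, monocyte and dendritic cell roles and the T and NK and B and plasma cell markers are highest in DKD replicates 2 and 3, whereas the hepatocyte and red cell markers are highest in DKD replicate 1.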

How the data were processed

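Poly(A) RNA of whole kidneys, 3 control and 3 DKD libraries, was sequenced in paired reads after a dUTP step that marks strand, per the labels' protocols. The authors deposited raw read counts per Ensembl gene for the 6 libraries. Per the submitters' processing notes, the build was GRCm39 and the tools included HISAT2, fastp, edgeR and StringTie; no source used here gives versions, roles, the annotation or the strand setting (versions: not given in the sources used here). Symbols were found for 55141 of 55401 IDs in a GRCm38 annotation, used for names, exon lengths and neighbours only. The genes, their roles and the related lists were chosen with earlier results of these data known.

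The main test was edgeR 4.0.16 (R 4.3.3; TMM factors, default count filter, robust quasi-likelihood fit), with Benjamini-Hochberg adjustment over all 19197 genes tested and a threshold of 0.05. Limma 3.58.1 and DESeq2 1.42.0, other scalings and filters, a replicate block and leaving out each library were alternatives; DESeq2 and limma-voom without DKD replicate 1 were added after seeing the data. The scripts were tested on simulated data. All 42 genes were accounted for; from each of 13 related lists (116 of 117 genes matched) up to 4 genes with the smallest p could be named, besides the markers Alb, Clec4f, Cd5l, Vsig4, S100a8, Cd3e and Cd79a. Ccr2, Lpl, Syk, Ptpn6, Umod, Elane, Fcer1a, Tpsb2, Ncr1, Klrb1c, the neighbours and the near copies were chosen after their values were seen. Counts of every library pair differed by more than sampling noise. One gene of the related lists is not reported here.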

Additional observations from a re-analysis of the deposited data

How the results depend on the processing

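With edgeR on all 6 libraries no gene was called, and the same held with RLE or upper quartile factors, library size alone, the stricter filter, the fit that was not robust, limma-voom without weights and the replicate block (0 genes, 0 of the list). Without a filter 4 genes were called (3 higher, 1 lower), none of the list. DESeq2 called 1749 genes (1195 higher, 554 lower), 8 of the list (7 higher, 1 lower) and 20 of the related genes (18 higher, 2 lower). Weighted limma-voom called 3397 (1909 higher, 1488 lower), 13 of the list (12 higher, 1 lower) and 31 related genes (26 higher, 5 lower).

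Leaving out each library in turn gave 0 to 3101 genes (0 to 1933 higher, 0 to 1168 lower), 0 to 28 of the list (0 to 28 higher, 0 lower in each case) and 0 to 45 related genes (0 to 38 higher, 0 to 7 lower), the highest count of each without DKD replicate 1; without control replicate 1 there were 7 genes and without DKD replicate 3 there was 1. Without DKD replicate 1, DESeq2 called 4658 genes (2630 higher, 2028 lower), 35 of the list (34 higher, 1 lower) and 55 related genes (47 higher, 8 lower), and limma-voom without weights 3593 (2288 higher, 1305 lower), 30 of the list (30 higher, 0 lower) and 51 related genes (44 higher, 7 lower).

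The median difference of the list was 1.16, 0.78 to 1.52 when 1 library was left out, and 0.90 to 1.33 under the other alternatives with all libraries (0.98 with the replicate block); library size alone moved the median of all genes to 0.17. The median relative level of 0.04 ran from -0.056 to 0.062 when 1 library was left out. Signs turned for Csf1r with weighted limma-voom (-0.11) and without DKD replicate 1 (-0.17 with edgeR, -0.18 with DESeq2, -0.17 with limma-voom without weights), and for Mertk with library size alone (0.0017). When 1 library was left out, Il34 ranged from -0.21 to 0.24, Csf1r from -0.17 to 0.16 and Cd209a from -0.19 to 1.02. The cause was not tested. The labels do not say whether libraries with the same replicate number share anything else. Deviations of same-numbered libraries correlated at 0.03, 0.02 and 0.03, and each library correlated best with its own number. With 3 libraries a group, counts near 0 (Cd163, Trem2, Itgam, Clec4n) left wide intervals.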
